A study of Homo sapiens with 6 samples.

Results

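The genes described here encode the proteins of the mitochondrial ribosome. They were chosen by symbol, as every row of the deposited gene table whose symbol is MRPL or MRPS followed by a number and, in some cases, a letter A, B or C. The rule found 78 of 35993 genes, 49 with MRPL (large subunit) and 29 with MRPS (small subunit) symbols, and all 78 passed the filter on low counts. The study treated MIA PaCa-2, a human pancreatic cancer cell line, with rhCYGB, a recombinant human cytoglobin that carries a 6His tag and was made in Escherichia coli. RNA was sequenced from 3 untreated libraries and from 3 libraries of cells given 4 µM rhCYGB for 48 h. Both groups are one cell line and carry its genome. By the labels the cells were kept in DMEM with 1% FBS for 24 h before the protein was added, and the labels do not say whether the untreated cells received a vehicle. The comparison asks how the transcripts of the mitoribosome and of its 2 subunits differed between rhCYGB-treated and untreated cells.

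Mitochondria translate the few messenger RNAs of their own genome, which encode core subunits of the respiratory chain and of ATP synthase, on a ribosome of their own. Its ribosomal RNAs are transcribed inside the organelle, whereas every one of its proteins is encoded in the nucleus, made in the cytosol and imported. Some of these proteins have counterparts in bacterial ribosomes and others are particular to mitochondria, and the small subunit reads the messenger RNA while the large subunit forms the peptide bond.

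The libraries held 34838399 to 42271299 gene counts. The keratins KRT8 and KRT18 and VIM were expressed, whereas EPCAM and the genes CDKN2A and MTAP, which this line is known to lack, were at 0 counts in all 6 libraries, which allows up to 0.0902 CPM (counts scaled to a common library size) in the shallowest library, for counting error only. The summed counts of 6 markers of fibroblasts, leukocytes and endothelial cells (COL1A1, DCN, LUM, PDGFRB, PTPRC and PECAM1) ranged from 6 to 15 in the untreated and from 0 to 4 in the rhCYGB libraries, with DCN, LUM, PTPRC and PECAM1 at 0 in all 6 libraries. The sources do not say whether the libraries of a group came from separate cultures, so the p-values measure the spread between these libraries, which may be technical.

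The mitoribosomal protein genes did not move together. A gene is called lower or higher here where its adjusted p was under 0.05 in the quasi-likelihood test of edgeR (Benjamini-Hochberg, over the 14728 genes tested). In rhCYGB-treated cells 34 of the 78 were lower, which is 43.6% beside 38.6% of all genes tested. Another 27 were higher, which is 34.6% beside 39.0% of all genes, and 17 were not called. Both shares lay near those of all genes tested. Among the 8727 genes with a mean CPM in the range of these 78, 39.6% were lower and 46.8% higher. The share higher thus lay further below that of genes of like level, a difference that was not tested. The split depended on the scaling between libraries: relative to total counts it was 45 lower and 15 higher, with the median of all genes shifted by -0.16 on the log2 scale, and all 34 genes called lower above, with 15 of the 27 called higher, were called so again. In bulk RNA, fewer cells of a type and less RNA per cell cannot be told apart.

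Most of the changes were small. Their log2 fold changes had a median of -0.06, against -0.0046 over all genes tested, and the middle 50% of values spanned 0.72 and 1.18 log2 units, respectively. A change of 2-fold or more in a called gene was found for 6 of 78, or 7.69%, beside 27.1% of all genes tested and 21.5% of the 8727 genes with a mean CPM in the range of these 78. By direction, 4 were lower by 2-fold or more (background 14.7%) and 2 were higher (background 12.4%). These shares describe the list and were not tested.

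**Figure D1:**
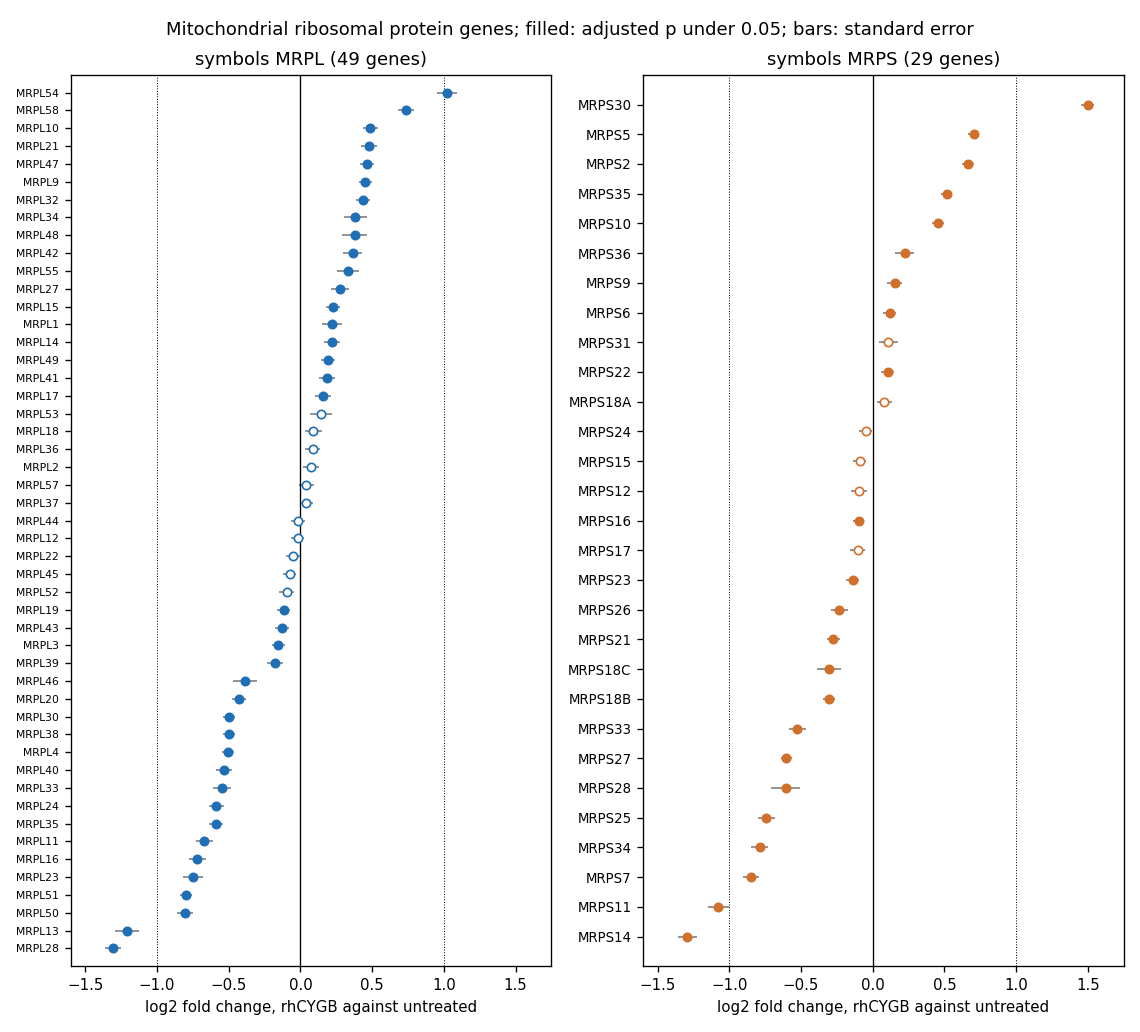
Fitted log2 fold change of rhCYGB against untreated libraries (horizontal axis) for each of the 49 MRPL genes (left) and 29 MRPS genes (right), in order of value. Bars are standard errors, filled points have an adjusted p under 0.05, and dotted lines mark 2-fold. Of the 78 genes, 4 lie beyond the left dotted line and 2 beyond the right.

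The largest change among the 78 was that of MRPS30 (chr5:44809049-44815616 in the deposited table, whose human genome build is not named), a protein particular to mitochondrial ribosomes. Its level was 71.1, 70.2 and 66.4 CPM in the untreated libraries and 206, 195 and 186 CPM in the rhCYGB libraries. Every treated library was above every untreated one, and the fold change was 2.83 (log2 1.498 ± 0.045, SE, n = 3 each, edgeR adjusted p = 1.88e-13). Despite its S symbol, MRPS30 sits in the large subunit, where the structural nomenclature names it mL65.

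MRPL54 (chr19:3762680-3767563), a large subunit protein near the stalk that recruits translation factors, was the other gene higher by 2-fold. It stood at 19.6, 21.2 and 19.1 CPM untreated and at 41.9, 43.2 and 36.8 CPM with rhCYGB, again without overlap between the groups. The log2 fold change was 1.02 ± 0.069 (SE, n = 3 each, edgeR adjusted p = 1.97e-09), close to the 2-fold limit. Without untreated library 3 or without rhCYGB library 2 it fell under that limit, at 0.99 and 0.98, and relative to total counts it was 0.86, while the call at any size held in each case.

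The 4 genes lower by 2-fold or more all have bacterial counterparts, as do 46 of the 78. MRPL28 (chr16:416969-420538), a large subunit protein, went from 60.8, 63.1 and 63.6 CPM to 25.4, 26.9 and 23.6 CPM (log2 fold change -1.31 ± 0.055, SE, n = 3 each, edgeR adjusted p = 7.77e-12). MRPS14 (chr1:174982094-174992591), in the head of the small subunit, went from 28.4, 27.4 and 26.3 CPM to 11.4, 10.7 and 11.4 CPM (log2 fold change -1.29 ± 0.066, SE, n = 3 each, edgeR adjusted p = 7.77e-11). For both genes the 3 treated libraries lay together, well below the untreated ones.

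MRPL13, a large subunit protein whose gene lies on chromosome 8, was at 33.6, 30.2 and 31.2 CPM untreated and at 14.0, 15.3 and 11.7 CPM with rhCYGB (log2 fold change -1.21 ± 0.083, SE, n = 3 each, edgeR adjusted p = 2.64e-09). MRPS11 (chr15:89010939-89024007), on the platform of the small subunit, was at 21.3, 22.5 and 22.5 CPM untreated and at 10.1, 11.3 and 10.0 CPM with rhCYGB (log2 fold change -1.08 ± 0.074, SE, n = 3 each, edgeR adjusted p = 2.77e-09). The groups did not overlap for either gene. None of the 6 genes with a 2-fold change overlapped another gene in the deposited table. Among all 78, 21 did, MRPS7, MRPS2, MRPS25, MRPL9, MRPL20, MRPL23, MRPL37 and MRPL47 included, and the sources do not say whether counting used strand, so their reads may hold those of the neighbour. The pseudogene MRPS31P5 held counts equal to 33.8% of those of MRPS31, and MRPS31 is uncertain for that reason.

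**Figure D2:**
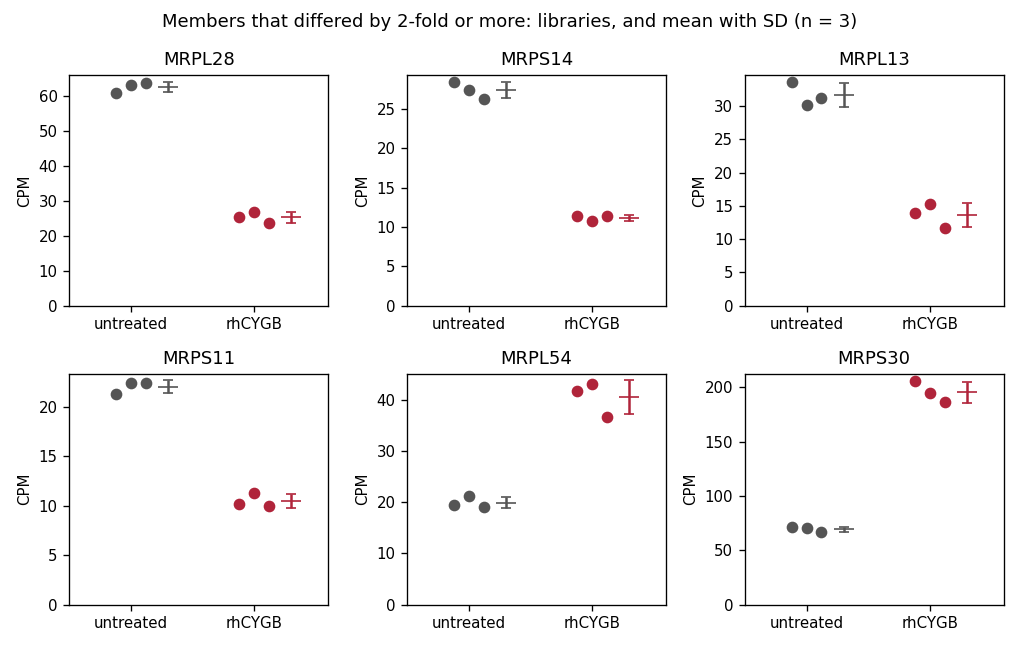
CPM (vertical axis, starting at 0, a scale of its own in each panel) in the 3 untreated and 3 rhCYGB libraries for the 6 genes that changed by 2-fold or more. Points are libraries, and crosses with bars are the mean and SD. In 4 panels the treated libraries are lower and in 2 they are higher, MRPS30 from 69.3 to 195.6 CPM on average, and no panel has overlapping groups.

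The promoter sequences of 4 of these genes are shown so that the genes with the largest changes in each direction can be read side by side. They are RefSeq windows on GRCh38.p14 from 250 bases before to 50 bases after the annotated start, written 5′ to 3′ on the gene's strand: MRPS30 at chr5:44808697-44808996 (plus strand), MRPL54 at chr19:3762432-3762731 (plus), MRPL28 at chr16:370489-370788 (minus) and MRPS14 at chr1:175023376-175023675 (minus). Capitals mark a match to 1 of the 5 short motifs named further on, here YY1 in MRPS30 (bases 264 to 270 of the window) and ETS in MRPL54 (230 to 236) and MRPL28 (258 to 264). Both ETS matches are CCGGAAG read on the opposite strand. MRPS14 had no match. MRPL13 is named only.
MRPS30: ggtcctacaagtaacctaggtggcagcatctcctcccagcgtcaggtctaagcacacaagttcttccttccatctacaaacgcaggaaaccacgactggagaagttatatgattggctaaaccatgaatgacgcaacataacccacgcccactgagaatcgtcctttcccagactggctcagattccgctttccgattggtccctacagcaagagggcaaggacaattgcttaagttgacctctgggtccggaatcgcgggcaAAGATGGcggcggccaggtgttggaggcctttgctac
MRPL54: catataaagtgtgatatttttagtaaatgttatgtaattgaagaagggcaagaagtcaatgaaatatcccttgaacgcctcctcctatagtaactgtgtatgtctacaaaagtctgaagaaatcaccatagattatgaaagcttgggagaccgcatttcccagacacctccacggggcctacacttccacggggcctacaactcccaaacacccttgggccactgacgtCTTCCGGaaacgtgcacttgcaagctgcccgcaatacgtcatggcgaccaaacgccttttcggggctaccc
MRPL28: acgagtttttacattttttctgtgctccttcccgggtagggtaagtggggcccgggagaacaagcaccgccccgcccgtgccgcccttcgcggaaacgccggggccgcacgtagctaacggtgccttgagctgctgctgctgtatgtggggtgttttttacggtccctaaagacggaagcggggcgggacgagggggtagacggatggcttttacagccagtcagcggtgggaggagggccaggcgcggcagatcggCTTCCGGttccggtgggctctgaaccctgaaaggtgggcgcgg
MRPS14: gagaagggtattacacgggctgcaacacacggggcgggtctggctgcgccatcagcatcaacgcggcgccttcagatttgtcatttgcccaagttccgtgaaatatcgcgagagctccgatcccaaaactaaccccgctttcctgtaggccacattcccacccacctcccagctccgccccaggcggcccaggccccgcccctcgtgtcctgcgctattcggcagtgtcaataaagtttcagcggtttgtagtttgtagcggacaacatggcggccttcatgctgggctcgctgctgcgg

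These matches were read against all promoters of the same length. A promoter was found for 70 of the 78 genes by gene identifier and for 27305 genes in all. The ETS core CCGGAAG, bound by GABP among other factors, was present on either strand in 41.4% of the 70 and in 10.7% of all promoters. The YY1 core AAGATGG was in 32.9% and 6.06%, and the NRF1 motif GCGCATGC in 8.57% and 3.27%. The E-box CACGTG, a site for MYC and related factors, was in 10.0% and 7.43%, and the ATF4 motif TGATGNAA in 1.43% and 3.67%. No match overlapped a match of another motif.

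The ETS core was the motif whose share differed most with direction. It was in 17 of 30 promoters of genes called lower (56.7%), in 7 of 24 of genes called higher (29.2%) and in 5 of 16 of genes not called (31.2%). The YY1 core was in 33.3%, 25% and 43.8% of the same groups. These are counts of letters in a window, with no test, and a match is not a site. The shares among all genes called lower or higher were not computed. The difference with direction therefore cannot be read as particular to the mitoribosomal protein genes.

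Both subunits held genes that rose and genes that fell, as did all genes tested, of which 38.6% were lower and 39.0% higher. By the letter in the symbol, of the 49 MRPL genes, 20 were lower (40.8%), 18 higher (36.7%) and 11 not called, with a median log2 fold change of -0.02. Among the 29 MRPS genes, 14 were lower (48.3%), 9 higher (31%) and 6 not called, with a median of -0.10. Set beside the median of all genes, -0.0046, both medians were small. Relative to total counts they were -0.18 and -0.26, with the median of all genes at -0.17.

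The symbols do not always give the place of the protein. MRPS30 and MRPS18A belong to the large subunit, and MRPS36, also named KGD4, is a subunit of the α-ketoglutarate dehydrogenase complex and not of the mitoribosome. Counted by structure, the large subunit had 51 genes, 20 lower, 19 higher and 12 not called, with a median of 0.04 that was -0.12 relative to total counts. The small subunit had 26 genes, 14 lower, 7 higher and 5 not called, with a median of -0.12 (-0.29 relative to total counts). Among these MRPL and MRPS genes, all those higher by 2-fold or more then lay in the large subunit, 2 of 51. The small subunit had 0 of 26, and each subunit had 2 of these genes lower by 2-fold or more. Mitoribosomal proteins with other symbols were left out of these counts and of the ratios and sums by structure that follow. Among them, CHCHD1 of the small subunit was also lower by 2-fold or more (log2 fold change -1.52).

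The balance of the subunits turned on this assignment. The summed FPKM (fragments scaled by transcript length and by library depth) of the MRPS genes, divided by that of the MRPL genes in the same library, was 0.525, 0.519 and 0.524 in the untreated and 0.568, 0.572 and 0.581 in the rhCYGB libraries. By symbol, the ratio thus went from 0.523 ± 0.0035 to 0.574 ± 0.0068 (SD, n = 3 each), a rise of 9.78% without overlap between the groups. By structure it was 0.467, 0.462 and 0.467 untreated and 0.453, 0.460 and 0.468 with rhCYGB, a change of -1.11% with overlapping groups.

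Most of the difference between the assignments came with MRPS30. Moving it alone to the large subunit gave 0.495 ± 0.0034 and 0.492 ± 0.0067 (-0.48%, groups overlapping). Leaving it out gave 0.504 ± 0.0035 and 0.519 ± 0.0069, a rise of 3.02% without overlap. Moving MRPS18A alone or leaving out MRPS36 alone left rises of 9.65% and 9.56%. A ratio within a library does not depend on the scaling between libraries, and no test was made on it.

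**Figure D3:**
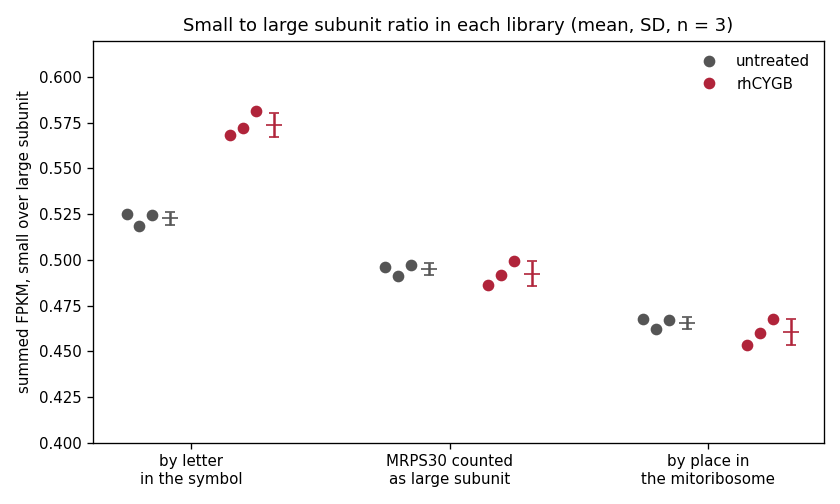
Ratio of summed small subunit FPKM to summed large subunit FPKM (vertical axis, starting at 0.4) in each library, with subunits assigned by the letter in the symbol, with MRPS30 alone counted as large subunit, and by place in the mitoribosome. Points are libraries and crosses with bars the mean and SD of 3; the groups are apart by symbol (0.523 and 0.574) and overlap in the other assignments.

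The summed level of all 78 genes hardly differed after scaling. It was 4543 ± 39.3 CPM untreated and 4504 ± 152 CPM with rhCYGB (SD, n = 3 each), a change of -0.85%. As a share of all gene counts it went from 0.481% to 0.425%. By structure, the summed CPM of the large and small subunits changed by -1.14% and -0.66%. The 2 ribosomal RNAs of the mitochondrial genome were called higher, though a kit that selects polyadenylated RNA is not designed for them. RNR1 (12S) was higher by 1.04 ± 0.035 and RNR2 (16S) by 1.21 ± 0.031 on the log2 scale (SE, n = 3 each, edgeR adjusted p = 7.31e-13 and 2.82e-14).

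In the small subunit, some proteins of the head, which holds the tRNAs, are given here and went both ways. They were grouped after the values were seen and are not all the proteins of the head. MRPS7 was lower, from 60.3, 59.4 and 59.1 CPM to 31.9, 31.7 and 35.7 CPM (log2 fold change -0.85). MRPS14 was lower as given above. MRPS10 was higher, from 72.3, 72.4 and 69.2 CPM to 102, 94.9 and 95.9 CPM (log2 fold change 0.45). MRPS9 was called higher by 0.15, a sign that turned to -0.013 relative to total counts. MRPS24 was not called (-0.05).

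Among the small subunit genes with MRPS symbols, MRPS5 and MRPS2 had the largest rises. MRPS5, which lines the entry of the messenger RNA, went from 71.1, 71.5 and 68.6 CPM to 118, 113 and 113 CPM (log2 fold change 0.70 ± 0.040, SE, n = 3 each, edgeR adjusted p = 3.18e-10). MRPS2, a counterpart of bacterial S2, went from 136, 137 and 133 CPM to 226, 210 and 208 CPM (log2 fold change 0.66 ± 0.041, SE, n = 3 each, edgeR adjusted p = 6.33e-10). Neither gene had overlapping groups. In the deposited table MRPS2 overlaps an uncharacterised locus.

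Of the 10 MRPS genes for small subunit proteins particular to mitochondria, 7 were lower, 2 higher and 1 not called, with a median log2 fold change of -0.27 (38.6% of all genes tested were lower and 39.0% higher). Of the 16 with bacterial counterparts, 7 were lower and 5 higher, with a median of -0.10. The difference between these 2 classes was not tested. Small subunit proteins with other symbols (CHCHD1, PTCD3, AURKAIP1 and DAP3, given further on) are in neither class. MRPS34 went from 53.3, 54.4 and 54.5 CPM to 32.3, 33.4 and 28.3 CPM (log2 fold change -0.79), and MRPS25 from 50.8, 56.0 and 50.8 CPM to 33.2, 29.4 and 31.5 CPM (-0.74). Against these, MRPS35 was higher, from 125, 120 and 127 CPM to 183, 176 and 174 CPM (0.52 ± 0.039, SE, n = 3 each, edgeR adjusted p = 8.04e-09). In the estimates per transcript, an MRPS25 transcript not listed as mRNA held 76.3% of the gene's counts untreated. Its log2 fold change was -1.23 (edgeR adjusted p = 0.0262 over all transcripts). The MRPS25 mRNA held 21.8% untreated and was not called (0.041 ± 0.31, SE, n = 3 each), so a fall was not shown for the mRNA. MRPS22 was called higher by 0.10 and MRPS6, a bacterial counterpart, by 0.12, and both turned to negative values relative to total counts (-0.061 and -0.049). MRPS36 was higher by 0.22.

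The 3 MRPS18 genes, all related to bacterial S18, are given together because they sit in different subunits. MRPS18B and MRPS18C, both of the small subunit, each fell by 0.31 on the log2 scale. MRPS18A, the large subunit copy, was at 35.8, 35.8 and 36.3 CPM untreated and at 39.4, 38.7 and 35.97 CPM with rhCYGB, with overlapping groups (0.08, edgeR adjusted p = 0.170).

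In the large subunit, the stalk that recruits translation factors held changes in both directions. This group and the next 2 were put together after the values were seen. MRPL10, its base, went from 48.0, 53.4 and 47.4 CPM to 69.0, 72.0 and 67.5 CPM (log2 fold change 0.49). MRPL11 went from 62.8, 62.4 and 62.9 CPM to 43.5, 38.4 and 36.2 CPM (-0.67). MRPL54 was higher by 1.02, and MRPL12, which MRPL10 carries, was not called (-0.02), nor was MRPL53 (0.14).

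The central protuberance, which faces the small subunit, was as divided. MRPL38, MRPL40 and MRPL46 fell by 0.50, 0.53 and 0.39, and MRPL48 rose by 0.38. MRPL58, a peptidyl-tRNA hydrolase that also rescues stalled ribosomes, went from 30.1, 30.1 and 27.1 CPM to 48.2, 50.1 and 47.2 CPM (log2 fold change 0.74 ± 0.056, SE, n = 3 each, edgeR adjusted p = 8.11e-09). Its groups did not overlap, and it had the second highest change of the MRPL genes. MRPL18 was not called (0.09).

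Around the exit of the peptide tunnel, MRPL23 went from 30.6, 31.5 and 30.1 CPM to 19.9, 18.8 and 16.3 CPM (log2 fold change -0.75), and MRPL24 fell by 0.59. MRPL47 rose, from 61.0, 60.6 and 56.9 CPM to 86.8, 80.5 and 78.8 CPM (0.46). MRPL39 fell by 0.18. MRPL22, MRPL44 and MRPL45, the last of which tethers the ribosome to the inner membrane, were not called at -0.05, -0.02 and -0.08.

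Of the other large subunit genes, MRPL50 went from 41.9, 43.5 and 46.2 CPM to 25.1, 24.3 and 26.0 CPM (log2 fold change -0.80), and MRPL51 from 117, 121 and 123 CPM to 71.9, 69.9 and 66.8 CPM (-0.80). Both are particular to mitochondria. Falls were also called for MRPL16 (-0.72), MRPL35 (-0.59), MRPL33 (-0.55), MRPL4 (-0.50), MRPL30 (-0.50), MRPL3 (-0.15), MRPL43 (-0.13) and MRPL19 (-0.12). MRPL21 rose by 0.48, MRPL9 by 0.45, MRPL32 by 0.44, MRPL34 by 0.38 and MRPL42 by 0.36. Smaller rises were those of MRPL55 (0.33), MRPL27 (0.28), MRPL15 (0.23), MRPL1 (0.22), MRPL14 (0.22), MRPL49 (0.19) and MRPL41 (0.18). MRPL17 was called higher by 0.16, which turned to -0.0099 relative to total counts. Of the genes called higher, MRPL41 was the one whose groups overlapped. MRPL49 overlaps SYVN1 in the deposited table. In the estimates per transcript, the MRPL49 mRNA was at 49.7 ± 2.0 CPM untreated and 39.4 ± 5.8 CPM with rhCYGB (SD, n = 3 each). A transcript of MRPL49 not listed as mRNA held 2.45% of the gene's counts untreated and 28.2% with rhCYGB, and neither transcript was called.

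Levels between genes were compared per length, in FPKM. In untreated cells the highest large subunit genes were MRPL41 at 139 ± 7.8, MRPL51 at 125 ± 4.1 and MRPL37 at 120 ± 4.4 FPKM, and the highest small subunit genes were MRPS24 at 92.0 ± 1.4, MRPS2 at 85.7 ± 0.69 and MRPS15 at 83.0 ± 2.2 FPKM (SD, n = 3 each). In each order of 3 the first gene was above the second in every untreated library, whereas the libraries of MRPL51 and MRPL37, and those of MRPS2 and MRPS15, overlapped. With rhCYGB, MRPL51 stood at 64.4 ± 2.2 FPKM and MRPS2 at 121 ± 6.6 FPKM. MRPL37 and MRPS15 were not called, MRPL37 with a log2 fold change of 0.04 that turned to -0.12 relative to total counts. The lowest level was that of MRPL42, 2.36 ± 0.092 FPKM at 38.1 to 40.7 CPM, whose listed transcripts are 15557 to 15662 bases long.

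The transcript table gave 185 transcripts of the 78 genes, of which 166 were tested. The lower transcripts numbered 39 of 166 (background 14.8% of 32577 tested) and the higher ones 18 (background 15.1%), and 109 were not called. Of the 39 genes with 2 or more tested transcripts, 2 had transcripts called in opposite directions. Counts per transcript are estimates, since reads shared by isoforms were divided by the program.

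MRPL20, a large subunit protein, fell as a gene by 0.43, from 52.6, 51.1 and 54.9 CPM to 39.1, 40.1 and 38.6 CPM. Its 1045-base transcript made up 8.27%, 7.60% and 6.65% of the gene's counts untreated and 19.9%, 19.1% and 17.3% with rhCYGB. That transcript rose by 0.82 ± 0.19 on the log2 scale (SE, n = 3 each, edgeR adjusted p = 0.0265 over all transcripts), whereas the 700-base transcript fell by 0.70 ± 0.057 (adjusted p = 0.000544). MRPL20 overlaps the antisense gene MRPL20-AS1, and without strand their reads cannot be told apart.

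MRPL22 was not called as a gene. Its 3055-base transcript made up 5.47%, 4.91% and 4.72% of the gene's counts untreated and 14.8%, 19.8% and 16.04% with rhCYGB, and no treated library was as low as an untreated one. It rose by 1.62 ± 0.24 on the log2 scale, whereas the 3173-base transcript, which held 95.0% of the counts untreated, fell by 0.32 ± 0.053 (SE, n = 3 each, edgeR adjusted p = 0.00527 and 0.00736).

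**Figure D4:**
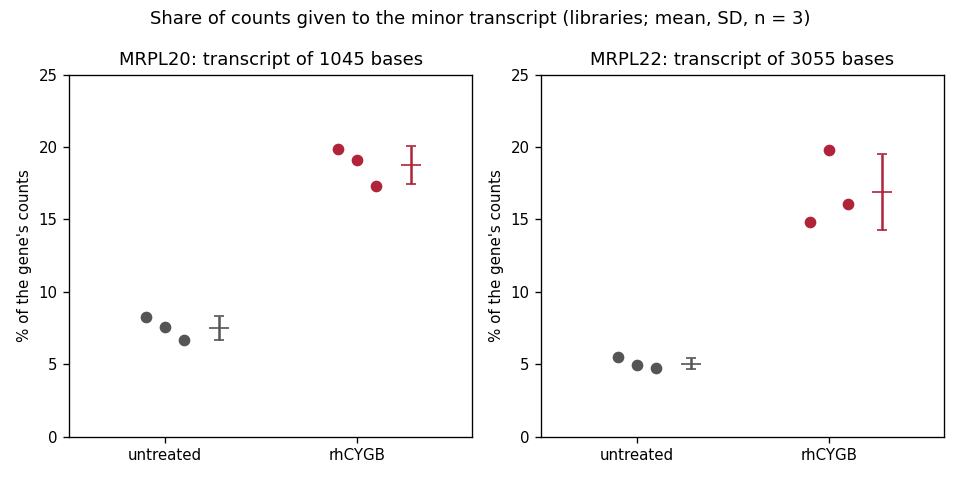
Share of the gene's counts (vertical axis, percent) given to the less abundant transcript of MRPL20 (1045 bases, left) and MRPL22 (3055 bases, right) in each library. Points are libraries and crosses with bars the mean and SD of 3. Over the summed counts of each group, the shares untreated and with rhCYGB are 7.48% and 18.8% for MRPL20 and 5.02% and 16.8% for MRPL22.

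Mitoribosomal proteins known by other symbols also went both ways. Of 5 tested, 3 were lower (60%) and 1 higher (20%), beside 38.6% and 39.0% of all genes tested. CHCHD1, in the small subunit, went from 27.5 ± 0.59 to 9.57 ± 1.1 CPM (log2 fold change -1.52) and PTCD3, a small subunit protein with RNA-binding repeats, from 138 ± 0.85 to 79.6 ± 1.3 CPM (-0.79). AURKAIP1, a small subunit protein, fell by 0.39. DAP3, a GTP-binding protein of the small subunit, rose from 144 ± 3.0 to 233 ± 7.7 CPM (0.69, SD, n = 3 each).

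Of 18 translation factors of mitochondria tested, 8 were lower (44.4%) and 6 higher (33.3%), beside 38.6% and 39.0% of all genes tested. Their median log2 fold change was -0.12. The lowest were MTRF1, a release factor paralogue, at -1.39, and MTFMT, which formylates the initiator tRNA, at -1.15, and TSFM, an elongation factor, was at -1.13. The highest were MTIF2, an initiation factor, at 0.33, and C12orf65, a ribosome rescue factor, at 0.32. Of 27 assembly factors, 11 were lower (40.7%) and 7 higher (25.9%), with a median of -0.09. RCC1L (-1.17) and the 16S rRNA methyltransferase MRM3 (-0.82) were the lowest, and NSUN4 (0.83) and NGRN (0.72) the highest. Relative to total counts the splits were 12 lower and 2 higher for the translation factors and 18 lower and 5 higher for the assembly factors.

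The ribosomal proteins of the cytosol moved mostly one way. Of 83 tested, 75 were higher (90.4%, beside 39.0% of all genes tested) and 4 lower (4.82%, beside 38.6%). Relative to total counts 41 were higher and 8 lower. Their median was 0.26, and the middle 50% of values spanned 0.16 log2 units against 0.72 for the mitochondrial set. Only RPL22L1, a paralogue of RPL22, rose by 2-fold or more (1.94), followed by RPL12 (0.67), and RPL26L1 (-0.64) and RPS27L (-0.29) were the lowest. Their summed level went from 84263 ± 1667 to 102163 ± 4267 CPM (SD, n = 3 each), a rise of 21.2%, while that of the mitochondrial set changed by -0.85%. Both values depend on the scaling: as a share of all gene counts the changes were 8.14% and -11.6%. The difference between the sets is given by counts and medians and was not tested.

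**Figure D5:**
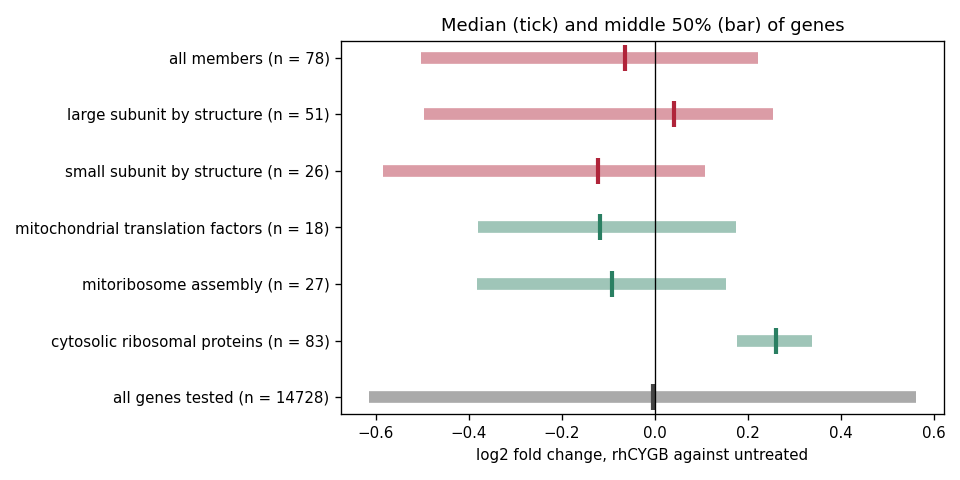
Median (tick) and middle 50% (bar) of the fitted log2 fold changes of rhCYGB against untreated libraries (horizontal axis), for the 78 mitoribosomal protein genes, their subunits by structure, mitochondrial translation and assembly factors, cytosolic ribosomal proteins and all 14728 genes tested. The bar of the cytosolic ribosomal proteins lies wholly above 0 and is the narrowest, and those of the mitochondrial groups cross 0.

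The regulators listed act on nuclear genes for mitochondrial proteins or, as TFAM, TFB2M and POLRMT do, on transcription of mitochondrial DNA. Of 12, 11 were tested and all 11 were called, beside 77.6% of all genes called. Among the 11, 3 were lower (27.3%) and 8 higher (72.7%), beside 38.6% and 39.0% of all genes tested. In 11 of the 16 alternative settings 7 were higher. MYC rose from 357 ± 9.0 to 1654 ± 49.2 CPM (log2 fold change 2.21) and GABPB1, a subunit of the ETS factor GABP, from 18.6 ± 0.56 to 48.4 ± 1.5 CPM (1.38, SD, n = 3 each). GABPA, its DNA-binding partner, fell by 0.34. TFB2M and TFAM, which start transcription on mitochondrial DNA, fell by 0.60 and 0.58. POLRMT, in the same list, rose from 63.8 ± 1.2 to 114 ± 5.0 CPM (0.84, SD, n = 3 each). Whether any of these bears on the genes above was not tested.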

How the data were processed

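RNA-seq libraries were made from MIA PaCa-2 cells with a TruSeq Stranded mRNA kit and sequenced on an Illumina NovaSeq instrument. The submitters' processing notes name FastQC 0.11.7, HISAT2 2.1.0 and StringTie 2.1.3b. They also name the mouse build mm10, although the tables hold human genes, and the human build is not given in the sources used here. The authors deposited read counts per gene and per transcript, which are whole numbers and not normalized, and FPKM values, which the authors scaled by length and depth. The 2 tables also hold 6 columns of TPM values each, 12 in all, not used here.

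Counts were filtered with filterByExpr, scaled by TMM and tested with edgeR 4.0.16 (glmQLFit and glmQLFTest, no covariates, R 4.3.3), with Benjamini-Hochberg adjustment over all features tested and an adjusted p under 0.05 as the call. CPM values were computed on library sizes (34827752 to 42255040 counts of genes that passed the filter) multiplied by the TMM factors. The common dispersion of 0.003 corresponds to a coefficient of variation of 5.48% between libraries. No pair of libraries agreed within sampling noise (chi-square per degree of freedom 4.67 to 6.62). DESeq2 1.42.0, limma 3.58.1 on log2(FPKM + 1) and log2(FPKM + 0.1), other scalings and filters, a replicate block and leaving out each library were alternatives.

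The genes and lists described were chosen with earlier results of these data known. Genes named with values were the 5 lowest and 5 highest fitted changes of each subunit by symbol, the 3 highest in FPKM, all genes called in the less common direction, the MRPS18 genes, MRPS30, MRPS36 and genes with transcripts called in opposite directions, and the 2 lowest and 2 highest called genes of each other list. TSFM, GABPA, POLRMT, the large subunit genes grouped by position and the other large subunit genes called lower were added after their values were seen.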

Additional observations from a re-analysis of the deposited data

How the results depend on the processing

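The counts of genes called moved most with the scaling and with the FPKM values, which differ from the counts in scaling, measure and test at once. The median log2 fold change of all genes shifted by -0.16 relative to total counts, by -0.14 with upper-quartile factors, and by -0.081 and -0.15 with limma on log2(FPKM + 1) and log2(FPKM + 0.1). Under these 4 settings, in that order, 15, 16, 13 and 12 mitoribosomal protein genes were called higher, against 27 with TMM, and 45, 43, 43 and 43 lower, against 34. The median change of the MRPL genes was -0.18, -0.16, -0.17 and -0.18 and that of the MRPS genes -0.26, -0.24, -0.26 and -0.27. By structure the large subunit median was -0.12, -0.10, -0.12 and -0.12 under these settings, against 0.041 with TMM. The small subunit median by structure was -0.29, -0.26, -0.27 and -0.29, against -0.12 with TMM.

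Signs turned for small changes only. MRPL17 went to -0.0099 relative to total counts and to -0.0052 and -0.0054 with limma at the pseudocounts 1 and 0.1. MRPS9 went to -0.013 in all 3 of these fits (-0.0132, -0.0129 and -0.0133). MRPS22 went to -0.061, -0.037 (upper quartile), -0.0606 and -0.0619, and MRPS6 to -0.049, -0.025, -0.0466 and -0.0473. MRPL37, not called with TMM, was lower relative to total counts at -0.12 (edgeR adjusted p = 0.0140). The 6 genes with a 2-fold change kept sign and call in all 16 alternatives.

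Leaving out each library in turn gave 30 to 33 genes lower, 23 to 31 higher, 4 lower by 2-fold in every case, 18 to 20 MRPL and 12 to 15 MRPS genes lower, medians of -0.044 to 0.0084 and -0.12 to -0.077, and 39 to 50 transcripts called against 57. Replicate numbers are shared by the groups, but libraries of the same number did not deviate together (correlations -0.048, 0.0072 and 0.0055). The fit with the replicate block called 34 genes lower and 26 higher, and 37 transcripts. The cause of these differences was not tested. With 3 libraries a group, the smallest change called was -0.099 on the log2 scale (MRPS16, SE 0.040), and a gene not called is not shown to be unchanged.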
